A study of Mus musculus with 12 samples.

Results

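Eµ-Myc lymphoma cells recovered from lymph nodes of C57BL/6J mice were compared by the route that had carried them there. The comparison sets 4 libraries of cells that had spread through lymphatic vessels, taken on day 11 after tumor injection, against 4 libraries of cells that had spread through the blood, taken on day 18. These are 8 of the 12 libraries of the series, chosen by their titles, and the other 4 were made from the same line in culture by their titles, against a tissue label of lymph node. All groups carry the Eµ-Myc transgene, in which the immunoglobulin heavy chain enhancer drives Myc in B cells, and all come from a cell line labelled B cell. Route and day change together, so they cannot be told apart. The labels do not give the site of injection, the marker of the sort, the node taken, or the age and sex of the mice. Nor do they tie replicates to separate mice, so the p-values rest on the spread among these libraries, which may be technical. The groups are called lymphatic and hematogenous below.

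Cells in afferent lymph enter a node at its subcapsular sinus, while cells in the blood enter through high endothelial venules. Inside the node a B cell meets interferon, antigen and survival signals that set large gene programmes. Type I interferon acts through the receptor chains Ifnar1 and Ifnar2, and many genes it switches on carry the interferon-stimulated response element in their promoters. Interferon gamma has its own receptor and induces an overlapping set of genes. MHC class II genes follow the coactivator Ciita in B cells, and low oxygen stabilises HIF1A, which switches on glycolytic enzymes.

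Assigned counts ran from 12399951 to 25302016 per lymphatic library and from 5286775 to 12444690 per hematogenous library. Lymphatic 4 stood apart, with 15.7% of its counts in cytosolic ribosomal protein genes (95% Wilson interval 15.68% to 15.71%, counting error only) against 7.49% to 8.67% in lymphatic 1 to 3 and 7.55% to 8.59% in the hematogenous libraries. It lay at 84.2 on the first principal component, which held 48.9% of the variance, where the other lymphatic libraries lay at 14.6 to 16.5 and the hematogenous ones at −41.5 to −26.6. Counts over all genes and of most gene lists below are therefore also given without it. B cell markers were expressed in both groups, all 10 at a mean of 1 CPM or more, but not at equal levels. They summed to 5827 to 6989 CPM in lymphatic and 7573 to 8012 CPM in hematogenous libraries. At an adjusted p under 0.05 edgeR found 4 of the 10 higher in hematogenous libraries (40%, beside 6.32% of all tested genes) and 0 in lymphatic ones. Without lymphatic 4 the counts were 7 and 0. Ighm, the heavy chain of IgM, was at 3817, 3312, 3758 and 3757 CPM in lymphatic 1 to 4, against 3961, 3552, 4192 and 3879 in hematogenous 1 to 4. The groups overlapped in this gene (log2 −0.09 ± 0.12, adjusted p = 0.656). Myc, the driver of this lymphoma, was at 556, 443, 676 and 621 CPM in lymphatic 1 to 4, against 647, 699, 552 and 608 in hematogenous 1 to 4, also with overlap (log2 −0.13 ± 0.15, adjusted p = 0.616).

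The routes differed in many genes, in both directions about equally. edgeR with Benjamini-Hochberg adjustment called 910 of 13044 tested genes higher in lymphatic libraries (6.98%) and 824 higher in hematogenous libraries (6.32%), 13.3% in all. Of these, 428 (3.28% of tested genes) and 403 (3.09%) differed at least 2-fold. The groups did not overlap in 25.2% of all tested genes. Without lymphatic 4 the counts were 1608 and 1749 (12.1% and 13.2% of 13248 tested), and 1730 of the 1734 genes kept their call in the same direction. Those 1730 were 99.8% of the first list and 51.5% of the second. The counts fell when any hematogenous library was left out, to 369 and 396 without hematogenous 1, 496 and 536 without hematogenous 2, 414 and 451 without hematogenous 3 and 414 and 433 without hematogenous 4, and the hematogenous count fell to 542 without lymphatic 1. Values below are CPM per library, log2 changes are lymphatic minus hematogenous with SE, and "called" means an adjusted p under 0.05 in edgeR over all tested genes. List counts below are to be set beside the 6.98% and 6.32% of all genes, or the 12.1% and 13.2% without lymphatic 4.

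**Figure D1:**
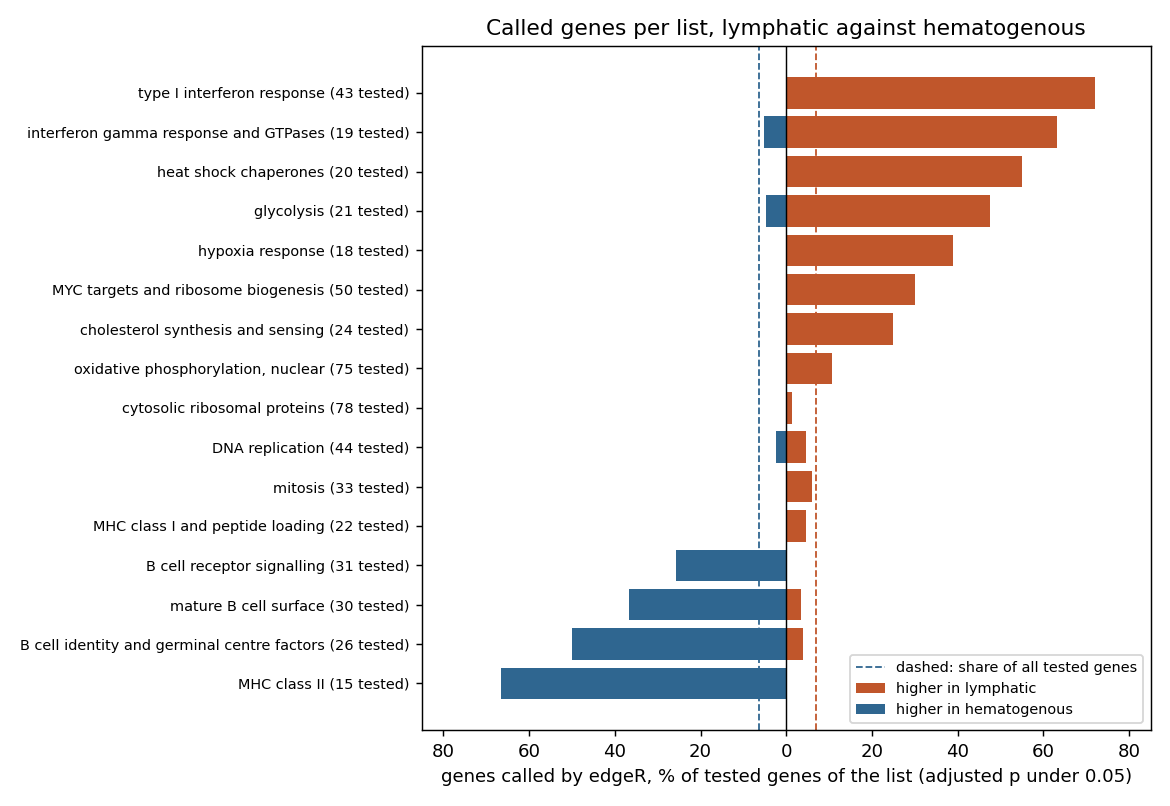
Bars give the share of the tested genes of each list (x axis, percent) that edgeR called higher in lymphatic (right) or in hematogenous libraries (left), with dashed lines at the shares over all tested genes (6.98% and 6.32%). Interferon lists lie furthest to the right, with 31 of 43 type I genes called, and MHC class II furthest to the left, with 10 of 15.

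Antiviral genes of the type I interferon response made the most one-sided group. Of 43 tested genes of the list, 31 were higher in lymphatic libraries and 0 in hematogenous ones, beside the 6.98% and 6.32% of all genes, and the median log2 change was 1.83 against 0.05 over all tested genes. Without lymphatic 4 the counts were 37 and 0, with a median of 1.56. In these bulk samples, fewer cells that express a gene and less of its RNA per cell cannot be told apart. The genes shown first are classic interferon-induced genes, and the stretches of their promoters that hold the response element are printed to show what they share. The motif searched was GAAA, any 2 bases and GAAA again, on both strands, so that the opposite strand reads TTTC, any 2 bases and TTTC. Matches are in capitals and can overlap. Sequences are from RefSeq, build GRCm38.p6, written 5′ to 3′ on the strand of the gene.
Ifit1, chr19:34640765-34640833, + strand: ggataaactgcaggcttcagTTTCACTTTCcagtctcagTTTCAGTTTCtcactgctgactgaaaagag
Ifit3, chr19:34583353-34583436, + strand: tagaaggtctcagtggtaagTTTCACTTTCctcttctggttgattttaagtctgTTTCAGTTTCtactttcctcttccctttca
Isg15, chr4:156200855-156200916, − strand: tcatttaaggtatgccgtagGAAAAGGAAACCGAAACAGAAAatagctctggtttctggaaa
In the 250 bases before the start, 12 of the 31 tested list genes with a promoter sequence held this motif (38.7%), against 936 of 27025 genes overall (3.46%).

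Ifit1, which binds viral RNA, was at 17.9, 50.3, 6.08 and 30.8 CPM in lymphatic 1 to 4, against 1.27, 0.167, 1.24 and 0.924 in hematogenous 1 to 4. Every lymphatic library lay above every hematogenous one, and lymphatic 3 was the lowest of its group (log2 4.87 ± 0.70, adjusted p = 0.00269). Its neighbour Ifit3, which has the near-identical copy Ifit3b and is uncertain for that reason, was at 9.10, 39.7, 4.80 and 22.7 CPM in lymphatic 1 to 4, against 1.66, 0.334, 1.63 and 0.739 in hematogenous 1 to 4. The groups again did not overlap, with lymphatic 2 highest (log2 4.09 ± 0.71, adjusted p = 0.00599), and without lymphatic 2 the log2 change was 3.45. Isg15, a ubiquitin-like modifier, was at 19, 24.4, 6.96 and 43.4 CPM in lymphatic 1 to 4, against 2.29, 1.42, 3.83 and 0.924 in hematogenous 1 to 4. Here lymphatic 4 was highest and lymphatic 3 lay less than 2-fold above hematogenous 3 (log2 3.42 ± 0.56, adjusted p = 0.00457). Usp18, a protease that removes Isg15 from proteins and dampens receptor signalling, was at 24.9, 58.2, 10.0 and 41.8 CPM in lymphatic 1 to 4, against 4.74, 2.76, 5.55 and 1.66 in hematogenous 1 to 4 (log2 3.15 ± 0.53, adjusted p = 0.00486). It showed the same order, with the groups apart and lymphatic 3 lowest of its group.

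Oas2, an oligoadenylate synthetase that activates RNase L, was at 69.2, 156, 33.7 and 42.1 CPM in lymphatic 1 to 4, against 10.8, 7.77, 10.4 and 4.06 in hematogenous 1 to 4 (log2 3.16 ± 0.50, adjusted p = 0.00377). Lymphatic 2 was more than 2-fold above the other lymphatic libraries, and without it the log2 change was 2.51. Oasl2 of the same family was at 10.9, 29.4, 5.84 and 16.1 CPM in lymphatic 1 to 4, against 1.27, 0.668, 1.24 and 0.554 in hematogenous 1 to 4, without overlap (log2 4.00 ± 0.53, adjusted p = 0.00201). Rtp4, an interferon-induced gene, was at 19.4, 40.8, 8.56 and 38.7 CPM in lymphatic 1 to 4, against 3.64, 2.67, 3.16 and 0.369 in hematogenous 1 to 4 (log2 3.36 ± 0.56, adjusted p = 0.00497). Hematogenous 4 was the lowest of its group here. The libraries kept this order across the list. Among the 31 called genes lymphatic 2 was the highest lymphatic library in 22 and lymphatic 4 in 9, lymphatic 3 was the lowest in 28, and hematogenous 4 was the lowest hematogenous library in 20.

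Genes of the interferon gamma response and the interferon-inducible GTPases moved the same way. Of 19 tested, 12 were higher in lymphatic and 1, Irf8, in hematogenous libraries (median log2 1.24), and the counts without lymphatic 4 were also 12 and 1. The same motif stood in 9 of the 15 tested genes of the whole list with a promoter sequence (60%). Printed for comparison with the antiviral genes are 3 that encode GTPases of the IRG and GBP families, which attack the vacuoles of intracellular pathogens.
Tgtp2, chr11:49064253-49064302, − strand: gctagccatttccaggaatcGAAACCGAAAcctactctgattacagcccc
Igtp, chr11:58199502-58199551, + strand: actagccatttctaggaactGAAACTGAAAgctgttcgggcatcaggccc
Gbp2, chr3:142620584-142620633, + strand: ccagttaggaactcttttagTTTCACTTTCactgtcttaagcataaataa
Tgtp2, which has the near-identical copy Tgtp1 and is uncertain for that reason, was at 13.4, 35.1, 7.68 and 13.2 CPM in lymphatic 1 to 4, against 1.82, 1.34, 1.82 and 0.369 in hematogenous 1 to 4 (log2 3.61 ± 0.53, adjusted p = 0.00280). The groups were apart and lymphatic 2 was highest, and without it the log2 change was 3.00. Igtp was at 32, 55.9, 17.6 and 38.8 CPM in lymphatic 1 to 4, against 11.2, 9.36, 13.6 and 10.5 in hematogenous 1 to 4 (log2 1.69 ± 0.31, adjusted p = 0.00715), where lymphatic 3 lay closest to the hematogenous libraries. Gbp2 was at 8.62, 25.5, 10.8 and 14.3 CPM in lymphatic 1 to 4, against 3.48, 3.42, 2.49 and 2.22 in hematogenous 1 to 4, without overlap (log2 2.33 ± 0.35, adjusted p = 0.00328). Lymphatic 2 was the highest lymphatic library in all 12 called genes. Irf8, a transcription factor of B and myeloid cells, ran against the list at 56, 41.4, 75.7 and 58.5 CPM in lymphatic 1 to 4, against 185, 127, 173 and 132 in hematogenous 1 to 4 (log2 −1.42 ± 0.20, adjusted p = 0.00254). Leaving out a library lowered the count of this list to 5 without hematogenous 1 or hematogenous 4, 6 without hematogenous 2 and 7 without hematogenous 3, and leaving out hematogenous 1 or 4 lowered the type I count to 22.

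Receptors and relay kinases of these pathways did not rise with the target genes. Of 17 tested, 0 were called higher in lymphatic libraries and 1, Ifnar1, higher in hematogenous ones (median log2 −0.17), and 4 without lymphatic 4. Ifnar1, a chain of the type I interferon receptor, was at 37.5, 35.8, 37.4 and 26.9 CPM in lymphatic 1 to 4, against 49.5, 60.2, 47.1 and 45.3 in hematogenous 1 to 4 (log2 −0.56 ± 0.16, adjusted p = 0.0436). Its call was lost without lymphatic 1, 2 or 3 or any hematogenous library (adjusted p up to 0.131). Summed T cell receptor and CD3 transcripts and summed C1q transcripts were also higher in lymphatic libraries, as given with the markers further on. Their part in the interferon result was not tested.

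**Figure D2:**
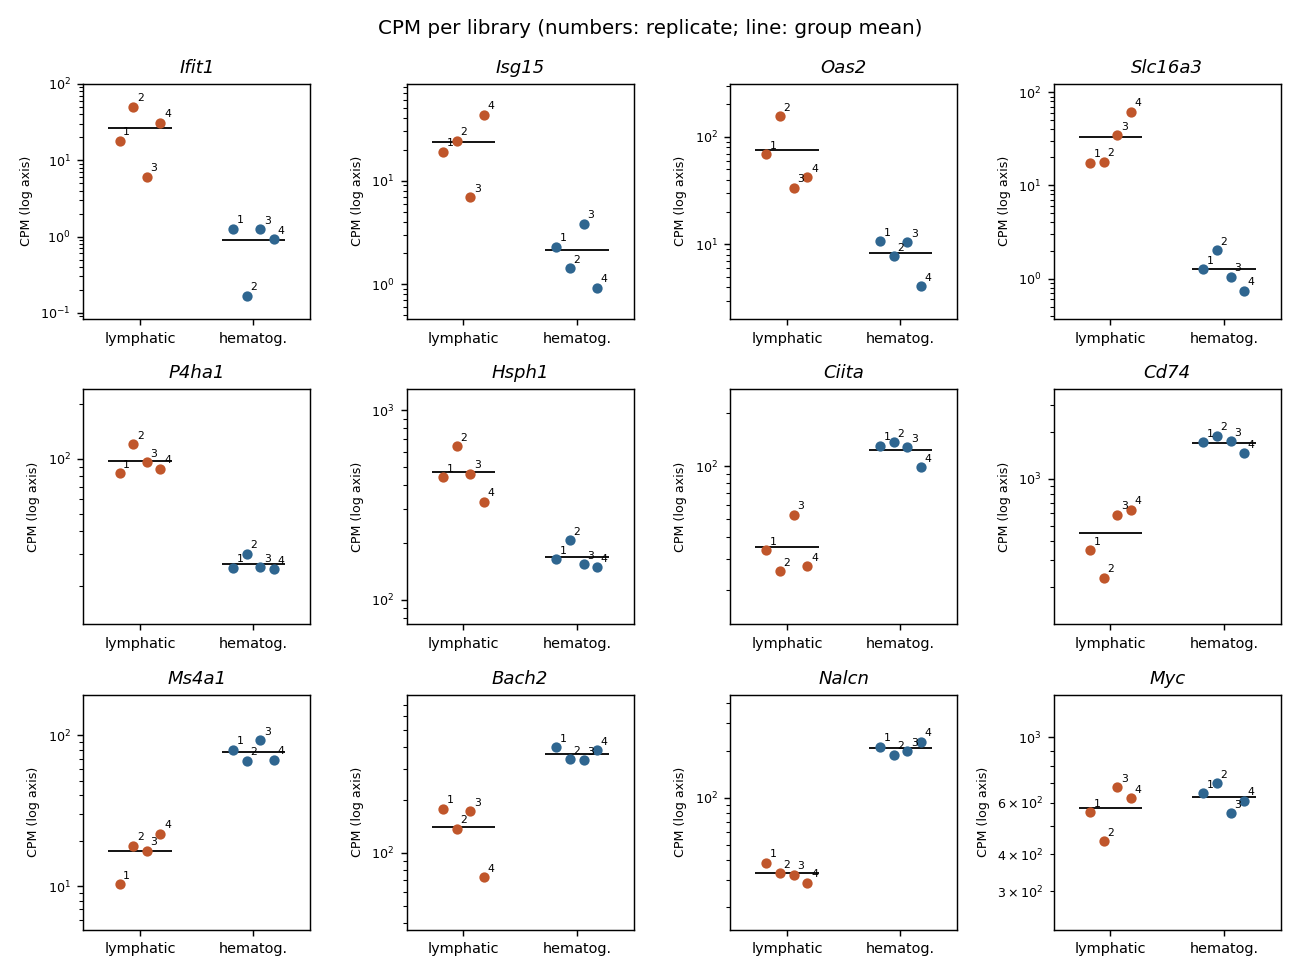
Each panel gives the CPM of a gene (y axis, log scale) in each library, numbered by replicate, with a line at the group mean. Ifit1, Isg15, Oas2, Slc16a3, P4ha1 and Hsph1 lie higher in all 4 lymphatic libraries, Ciita, Cd74, Ms4a1, Bach2 and Nalcn lie higher in all 4 hematogenous libraries, and Myc overlaps.

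MHC class II genes ran opposite to the interferon genes. Of 15 tested, 10 were higher in hematogenous libraries (beside 6.32% of all genes) and 0 in lymphatic ones, with a median log2 change of −1.66. Without lymphatic 4 the counts were 12 and 0 and the median −1.77, and leaving out any other library gave 9 or 10. Ciita, the coactivator that switches these genes on, was at 33.5, 25.5, 53 and 27.1 CPM in lymphatic 1 to 4, against 129.9, 136, 128 and 98.8 in hematogenous 1 to 4 (log2 −1.83 ± 0.23, adjusted p = 0.00184). Hematogenous 4, the lowest of its group, was nearly 2-fold above lymphatic 3, the highest of the other. Cd74, the invariant chain that escorts new class II molecules, was at 346, 231, 589 and 633 CPM in lymphatic 1 to 4, against 1723, 1893, 1742 and 1457 in hematogenous 1 to 4 (log2 −1.92 ± 0.29, adjusted p = 0.00317). No lymphatic library reached the hematogenous range. H2-DMa and H2-DMb2 encode chains of the DM family that exchange peptides on class II. H2-DMa was at 10.6, 6.69, 19 and 27.5 CPM in lymphatic 1 to 4, against 63.8, 68.4, 70.8 and 50.4 in hematogenous 1 to 4 (log2 −2.0 ± 0.37, adjusted p = 0.00794). H2-DMb2 was at 9.23, 12.2, 28.6 and 26.4 CPM in lymphatic 1 to 4, against 109, 116, 133 and 90.3 in hematogenous 1 to 4 (log2 −2.56 ± 0.34, adjusted p = 0.00208). Lymphatic 3 and 4 lay above lymphatic 1 and 2 in Cd74 and both DM genes, and below every hematogenous library. The surface chains H2-Aa, H2-Ab1 and H2-Eb1 were called in the same direction, as were H2-Eb2, H2-Oa and H2-DMb1. Culture lay below both node groups in Ciita (11 CPM), Cd74 (72.8 CPM) and H2-DMb2 (1.85 CPM).

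Class I genes did not share this pattern. Of 22 class I and peptide loading genes, 1 was higher in lymphatic libraries, the non-classical H2-T24 (28.6 ± 7.21 against 14.7 ± 1.61 CPM, log2 0.96 ± 0.20, adjusted p = 0.0119), and 0 were higher in hematogenous ones. The median was 0.11 and turned to −0.11 without lymphatic 4, with 2 and 5 genes called.

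**Figure D3:**
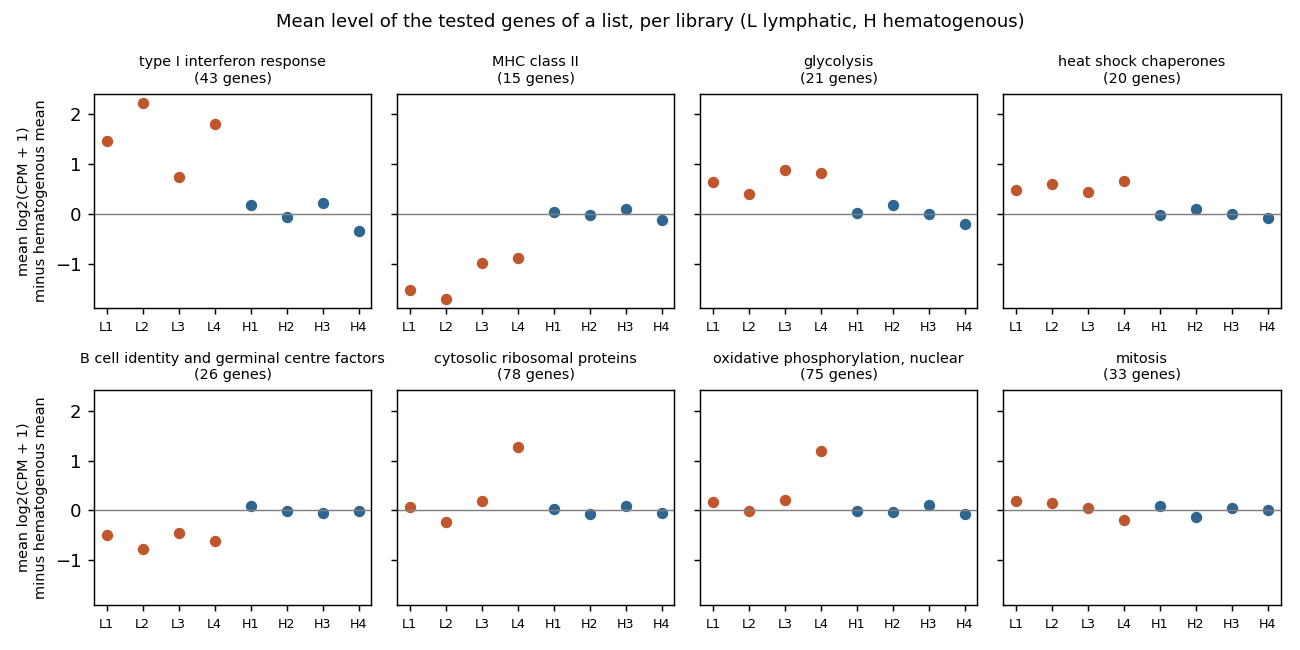
Each panel gives, per library, the mean of log2(CPM + 1) over the tested genes of a list minus the mean of the 4 hematogenous libraries (y axis, log2 units). Type I interferon, glycolysis and heat shock lists lie above 0 in all 4 lymphatic libraries, MHC class II and B cell identity lie below it, and ribosomal protein and oxidative phosphorylation genes are high in lymphatic 4.

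Mature B cell surface genes, B cell receptor signalling genes and B cell transcription factors that passed the test were higher in hematogenous libraries, with 1 exception each among the surface genes and the factors. Among 30 surface genes 11 were higher there and 1, the inhibitory Fc receptor Fcgr2b, in lymphatic libraries (median log2 −0.38). Among 31 receptor signalling genes the counts were 8 and 0 (median −0.30), and among 26 factors of B cell identity and the germinal centre 13 and 1 (median −0.56). The hematogenous counts are 36.7%, 25.8% and 50% of the lists, beside 6.32% of all genes. Without lymphatic 4 they were 16, 14 and 17 (53.3%, 45.2% and 65.4%), while the share of all genes rose to 13.2%. The lymphatic counts were then 3, 0 and 1. Leaving out a hematogenous library brought the hematogenous counts down to 7 surface genes without hematogenous 4 and to 5 signalling genes without hematogenous 1, 2 or 4. The factors numbered 7 without hematogenous 1 or 4 and 8 without hematogenous 3.

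Ms4a1, which encodes CD20, was at 10.3, 18.5, 17.1 and 22.3 CPM in lymphatic 1 to 4, against 80.0, 67.7, 92.9 and 68.9 in hematogenous 1 to 4 (log2 −2.18 ± 0.23, adjusted p = 8.16e-04). The lowest hematogenous library was 3-fold above the highest lymphatic one, and culture was at 0.790 CPM. Tnfrsf13c, the BAFF receptor that keeps mature B cells alive, was at 37.8, 31.2, 42.6 and 42 CPM in lymphatic 1 to 4, against 100.5, 70.3, 86.3 and 105 in hematogenous 1 to 4 (log2 −1.24 ± 0.17, adjusted p = 0.00214). Cd180, which restrains and tunes Toll-like receptor signals, was at 34, 33.1, 32.2 and 21.2 CPM in lymphatic 1 to 4, against 59.1, 77, 65.3 and 67.4 in hematogenous 1 to 4 (log2 −1.16 ± 0.18, adjusted p = 0.00322). In all of these genes the groups were apart, and lymphatic 4 was lowest for Cd180. Cd52, a small surface glycoprotein of lymphocytes, was at 17.6, 19.8, 33.4 and 55.1 CPM in lymphatic 1 to 4, against 72, 80.1, 87.9 and 71.3 in hematogenous 1 to 4 (log2 −1.31 ± 0.32, adjusted p = 0.0252), with lymphatic 4 closest to the hematogenous group. Fcgr2b was at 233, 247, 208 and 259 CPM in lymphatic 1 to 4, against 167, 139, 184 and 147 in hematogenous 1 to 4 (log2 0.57 ± 0.13, adjusted p = 0.0211), higher in every lymphatic library. Single omissions ended the calls of Cd52 (without lymphatic 1, 2 or 3 or any hematogenous library, adjusted p up to 0.0720) and Fcgr2b (without lymphatic 1 or 2 or hematogenous 1, 2 or 4, adjusted p up to 0.0780).

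Ighd, the heavy chain of IgD that mature naive B cells carry beside IgM, was at 146, 150.5, 189.9 and 153 CPM in lymphatic 1 to 4, against 936, 776, 825 and 935 in hematogenous 1 to 4 (log2 −2.44 ± 0.14, adjusted p = 3.38e-05). It was named after its values were seen. All hematogenous libraries were at least 4-fold above all lymphatic ones, with culture at 316 CPM between them, while Ighm from the same locus overlapped between the groups. Heavy chain V reads came almost entirely from Ighv3-6 in both groups. Other Ighv segments held between 1.18% and 5.17% of these reads per lymphatic library and between 0.284% and 1.75% per hematogenous one. The highest was lymphatic 3 (95% Wilson interval 4.58% to 5.83%) and the lowest hematogenous 4 (0.138% to 0.584%).

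Within receptor signalling, Rasgrp1, an exchange factor that activates Ras, was at 41.7, 37.4, 43.8 and 26.4 CPM in lymphatic 1 to 4, against 123, 107, 101 and 93.8 in hematogenous 1 to 4 (log2 −1.52 ± 0.18, adjusted p = 0.00134). Lat2, an adaptor that B cells use in place of LAT, was at 1.43, 1.81, 3.28 and 3.01 CPM in lymphatic 1 to 4, against 9.88, 12.5, 13.4 and 13.1 in hematogenous 1 to 4 (log2 −2.36 ± 0.28, adjusted p = 0.00143). Both separated the groups without overlap. Inpp5d, the phosphatase SHIP1 that limits PI3K signals, was at 127, 108, 149 and 76 CPM in lymphatic 1 to 4, against 299, 252, 256 and 257 in hematogenous 1 to 4 (log2 −1.21 ± 0.19, adjusted p = 0.00392). The calcium-regulated factor Nfatc1 was higher in hematogenous libraries too (20.6 ± 6.30 against 38.7 ± 3.69 CPM, log2 −0.91 ± 0.22, adjusted p = 0.0216), and Grb2, Vav1, Plcg2 and Themis2 complete the called genes. With 7 libraries the call was lost for Nfatc1 (without hematogenous 1, 2 or 4, adjusted p up to 0.0641).

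Among transcription factors, Bach2, which holds B cells back from plasma cell fate, was at 179, 138, 173 and 72.8 CPM in lymphatic 1 to 4, against 399.7, 343, 339 and 386 in hematogenous 1 to 4 (log2 −1.39 ± 0.25, adjusted p = 0.00635). Lymphatic 4 was the lowest library. Ets1 was at 246, 205, 237 and 157 CPM in lymphatic 1 to 4, against 514, 423, 443 and 471 in hematogenous 1 to 4 (log2 −1.13 ± 0.16, adjusted p = 0.00232). Ikzf3 (Aiolos) was at 181, 149.6, 195 and 42.4 CPM in lymphatic 1 to 4, against 356, 346, 297 and 382 in hematogenous 1 to 4 (log2 −1.28 ± 0.37, adjusted p = 0.0452). Lymphatic 4 was low here too, and without it the log2 change of Ikzf3 was −1.01. Ebf1, Pax5, Spib, Bcl11a, Mef2c, Foxp1, Pou2af1 and S1pr2 were called in the same direction. Tcf4 (E2-2), an E protein, ran the other way at 106, 107, 89.6 and 106 CPM in lymphatic 1 to 4, against 68.2, 61, 65.1 and 71.5 in hematogenous 1 to 4 (log2 0.62 ± 0.12, adjusted p = 0.00984), higher in all lymphatic libraries. Among the 13 called factors lymphatic 4 was the lowest library in 8. Leaving out 1 library at a time ended the calls of Ikzf3 (without lymphatic 1 or 2 or any hematogenous library, adjusted p up to 0.115) and S1pr2 (without lymphatic 1, 2 or 3 or any hematogenous library, adjusted p up to 0.106).

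Of 12 recombination and precursor B cell genes 2 were higher in each direction (16.7%, beside 6.98% and 6.32% of all genes). Without lymphatic 4 the counts were 3 in lymphatic (25%, beside 12.1%) and 5 in hematogenous libraries (41.7%, beside 13.2%). Rag1, which cuts antigen receptor genes, was at 41.7, 49.9, 52 and 10.5 CPM in lymphatic 1 to 4, against 9.33, 10.5, 6.60 and 4.62 in hematogenous 1 to 4 (log2 2.28 ± 0.45, adjusted p = 0.0103). Lymphatic 1 to 3 lay far above the hematogenous libraries, and lymphatic 4 lay at their upper edge, so the groups overlapped. Dntt, the terminal transferase, was called in the same direction, and Bst1 and Cplx2 in the other. Cplx2, a complexin that regulates vesicle fusion, was at 54.5, 34.9, 38.4 and 45.4 CPM in lymphatic 1 to 4, against 171, 134, 87.9 and 123 in hematogenous 1 to 4 (log2 −1.58 ± 0.22, adjusted p = 0.00216), with the groups apart. Toll-like receptor genes had 4 of 16 higher in hematogenous libraries (25%, beside 6.32% of all genes) and 0 in lymphatic ones. The hematogenous count was 1 without hematogenous 1 or 4, 2 without lymphatic 1 or hematogenous 2 or 3 and 5 without lymphatic 4. In the fit without lymphatic 4, 1 gene, Tlr7, was called higher in lymphatic libraries. Tlr9, the receptor for CpG DNA, was at 9.57, 8.85, 9.92 and 2.35 CPM in lymphatic 1 to 4, against 25.7, 19.3, 20.2 and 25.3 in hematogenous 1 to 4 (log2 −1.56 ± 0.37, adjusted p = 0.0214), and its lymphatic 4 value was far below the other lymphatic libraries. With 1 library left out, edgeR no longer called Tlr9 (without hematogenous 1 or 4, adjusted p up to 0.0691).

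Glycolysis and hypoxia-induced genes were called in part, and those called were higher in lymphatic libraries except for 1 enzyme. Of 21 glycolysis genes 10 were higher there and 1, the hexokinase Hk1, in hematogenous ones (median log2 0.67), and of 18 hypoxia genes 7 and 0 (median 0.52). Without lymphatic 4 the counts were 11 and 1, and 12 and 0. Glycolysis had 6 genes without hematogenous 1 or 4, and hypoxia 4 without hematogenous 1, 3 or 4. The core of the hypoxia response element, ACGTG on either strand (the opposite strand reads CACGT), stood in 10 of the 14 tested hypoxia genes with a promoter sequence (71.4%) and in 11 of 20 glycolysis genes (55%), against 4998 of all 27025 (18.5%). Stretches of promoters from RefSeq, GRCm38.p6, show it in capitals for genes described next, and CACGTG matches on both strands, where it also spells the E-box that MYC can bind.
Bnip3, chr7:138909589-138909634, − strand: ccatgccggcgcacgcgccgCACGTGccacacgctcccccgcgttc
P4ha1, chr10:59323260-59323295, + strand: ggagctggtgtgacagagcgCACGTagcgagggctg
Pgk1, chrX:106186930-106186993, + strand: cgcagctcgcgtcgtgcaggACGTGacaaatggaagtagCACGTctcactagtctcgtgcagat

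Slc16a3, which exports lactate and is a classic HIF1A target, was at 17.5, 18.1, 34.5 and 61.9 CPM in lymphatic 1 to 4, against 1.27, 2.00, 1.05 and 0.739 in hematogenous 1 to 4 (log2 4.63 ± 0.50, adjusted p = 8.70e-04). The lowest lymphatic library was 8-fold above the highest hematogenous one, lymphatic 4 was highest, and culture was at 94.1 CPM. Bnip3, which directs mitochondria to autophagy, was at 35.6, 41.2, 47.6 and 61.1 CPM in lymphatic 1 to 4, against 7.91, 11.9, 11.7 and 6.65 in hematogenous 1 to 4 (log2 2.27 ± 0.24, adjusted p = 8.64e-04). P4ha1, a prolyl hydroxylase of collagen, was at 83.4, 119.8, 95.4 and 87.8 CPM in lymphatic 1 to 4, against 25.2, 30.2, 25.4 and 24.8 in hematogenous 1 to 4 (log2 1.87 ± 0.16, adjusted p = 3.09e-04). The groups were wide apart in both genes, and lymphatic 4 was not the highest for P4ha1. Ero1l, an oxidase of the endoplasmic reticulum, was at 104, 108, 91.1 and 57 CPM in lymphatic 1 to 4, against 43.8, 44.6, 34.8 and 37.9 in hematogenous 1 to 4 (log2 1.16 ± 0.20, adjusted p = 0.00603), with lymphatic 4 lowest of its group.

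Among glycolytic enzymes, Aldoa was at 363, 261, 503 and 668 CPM in lymphatic 1 to 4, against 130.4, 168, 156 and 118 in hematogenous 1 to 4 (log2 1.65 ± 0.26, adjusted p = 0.00416). Pgk1 was at 576, 707, 625 and 776 CPM in lymphatic 1 to 4, against 279.9, 319, 326 and 294 in hematogenous 1 to 4 (log2 1.14 ± 0.13, adjusted p = 0.00135). Ldha, which turns pyruvate to lactate, was at 1979, 1806, 2217 and 3267 CPM in lymphatic 1 to 4, against 1025, 1299, 1202 and 971 in hematogenous 1 to 4 (log2 1.04 ± 0.20, adjusted p = 0.00877). No library crossed to the other group in these enzymes. Lymphatic 4 was the highest lymphatic library in 7 of the 10 called genes and hematogenous 2 the highest hematogenous library in 9. Tpi1, Eno1, Pkm, Pgam1, Hk2 and Slc16a1 were called with them, and Hk1 ran the other way (8.11 ± 2.35 against 14.3 ± 1.70 CPM, log2 −0.83 ± 0.22, adjusted p = 0.0351). Ankrd37, a hypoxia marker, was at 18.1 ± 10.8 against 7.23 ± 1.5 CPM (log2 1.33 ± 0.37, adjusted p = 0.0392), of which lymphatic 4 held 34.0 CPM. Calls were lost when 1 library was omitted for Hk1 (without lymphatic 1 or 2 or any hematogenous library, adjusted p up to 0.118) and Ankrd37 (without lymphatic 3 or any hematogenous library, adjusted p up to 0.125). Culture lay above both node groups for Aldoa, Ldha, Pgk1, Bnip3 and Slc16a3.

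Lipid genes changed in part. Of 24 genes of cholesterol synthesis and sensing 6 were higher in lymphatic libraries and 0 in hematogenous ones (median log2 0.47), and without lymphatic 4 the counts were 10 and 1. Leaving out any hematogenous library gave 3, and leaving out lymphatic 1 or 3 gave 4. Fdps, which makes farnesyl diphosphate, was at 41.4, 48.6, 61 and 60.2 CPM in lymphatic 1 to 4, against 24.7, 27.6, 29.5 and 33.6 in hematogenous 1 to 4 (log2 0.87 ± 0.17, adjusted p = 0.00935). Msmo1, a sterol demethylation enzyme, was at 47, 63.5, 62.4 and 63.7 CPM in lymphatic 1 to 4, against 32.3, 33.2, 33.8 and 37.1 in hematogenous 1 to 4 (log2 0.80 ± 0.14, adjusted p = 0.00667). The groups were apart in both, and lymphatic 1 was lowest of its group. Insig1, the sterol sensor that retains SCAP, was at 76.7, 89.2, 84.1 and 57.3 CPM in lymphatic 1 to 4, against 45.8, 35, 45.7 and 50.4 in hematogenous 1 to 4 (log2 0.80 ± 0.17, adjusted p = 0.0157), with lymphatic 4 closest to the hematogenous libraries, and its call was lost without hematogenous 1 (adjusted p 0.0532). Culture lay above both groups in all of these.

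Of 13 fatty acid synthesis and desaturation genes 4 were higher in lymphatic libraries and 1, Elovl6, in hematogenous ones, the first count being 2 without hematogenous 1, 3 or 4 and 6 without lymphatic 4. The hematogenous count was 2 without lymphatic 4. Fads2, the delta-6 desaturase, was at 11.9, 11.4, 23.9 and 7.33 CPM in lymphatic 1 to 4, against 1.34, 0.835, 1.82 and 1.11 in hematogenous 1 to 4 (log2 3.39 ± 0.41, adjusted p = 0.00145). All lymphatic libraries were at least 4-fold above the hematogenous ones, and culture was at 174 CPM. Elovl6, which lengthens palmitate, was at 161, 175, 184 and 95.7 CPM in lymphatic 1 to 4, against 251, 262, 264 and 272 in hematogenous 1 to 4 (log2 −0.77 ± 0.19, adjusted p = 0.0252). Fatty acid oxidation was divided, with 4 of 23 genes higher each way. Genes higher in lymphatic libraries numbered 1 without hematogenous 1 or 2, 2 without hematogenous 3 and 5 without lymphatic 4, and genes higher in hematogenous ones 2 without lymphatic 1, 2 or 3 or any hematogenous library and 5 without lymphatic 4. Cpt1a, the carnitine transferase that admits fatty acids to mitochondria, was at 45.4, 36.3, 32.1 and 19.4 CPM in lymphatic 1 to 4, against 210.3, 129, 151 and 134 in hematogenous 1 to 4 (log2 −2.23 ± 0.26, adjusted p = 0.00134). Slc25a20, the carnitine carrier that acts next, was at 9.44, 10.5, 6.96 and 11 CPM in lymphatic 1 to 4, against 40.2, 18.8, 25.8 and 20.3 in hematogenous 1 to 4 (log2 −1.47 ± 0.26, adjusted p = 0.00635). Hematogenous 1 was highest and no groups overlapped in either. The beta-oxidation enzyme Acadsb was higher in lymphatic libraries (18.3 ± 3.37 against 10.7 ± 1.30 CPM, log2 0.78 ± 0.19, adjusted p = 0.0220). Decr1 was higher in hematogenous ones (14.7 ± 3.52 against 25.3 ± 4.94 CPM, log2 −0.77 ± 0.21, adjusted p = 0.0375). Omitting 1 library ended the calls of Elovl6 (without lymphatic 1 or any hematogenous library, adjusted p up to 0.0741), Acadsb (without lymphatic 1 or any hematogenous library, adjusted p up to 0.0827) and Decr1 (without lymphatic 1, 2 or 3 or any hematogenous library, adjusted p up to 0.112).

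Chaperones and growth genes that passed the test were higher in lymphatic libraries. Of 20 heat shock chaperones 11 were higher there and 0 in hematogenous ones (median log2 0.56), and 11 and 0 without lymphatic 4 (median 0.41). The count was 6 without hematogenous 1 or 4 and 7 without hematogenous 3. The heat shock element that HSF1 binds, searched as GAA, any 2 bases, TTC, any 2 bases and GAA on both strands, stood in 3 of 15 tested list genes with a promoter sequence (20%) and in 139 of 27025 overall (0.514%). It is printed for Hspe1, which shares its promoter region with Hspd1. Capitals join a match on each strand that overlap, with RefSeq and GRCm38.p6 as before.
Hspe1, chr1:55088039-55088096, + strand: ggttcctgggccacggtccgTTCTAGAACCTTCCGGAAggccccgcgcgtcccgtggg
Hspe1, a mitochondrial co-chaperonin, was at 323, 398, 325 and 735 CPM in lymphatic 1 to 4, against 183, 192, 209.5 and 186 in hematogenous 1 to 4 (log2 1.21 ± 0.25, adjusted p = 0.0125). Its partner Hspd1 was at 1732, 2008, 1516 and 1805 CPM in lymphatic 1 to 4, against 944, 1088, 936 and 978 in hematogenous 1 to 4 (log2 0.84 ± 0.13, adjusted p = 0.00364). The groups were apart, and lymphatic 4 was highest for Hspe1 only. Hsph1, an HSP110 exchange factor, was at 442, 645, 461 and 329 CPM in lymphatic 1 to 4, against 163, 206, 154 and 148 in hematogenous 1 to 4 (log2 1.48 ± 0.21, adjusted p = 0.00217), with lymphatic 4 lowest of its group. Hsp90aa1, the inducible HSP90, was at 1540.2, 2010.0, 1436 and 1888 CPM in lymphatic 1 to 4, against 873, 1003, 919 and 958 in hematogenous 1 to 4 (log2 0.87 ± 0.14, adjusted p = 0.00457), and its co-chaperone partner Dnaja1 at 333 ± 74 against 173 ± 12.5 CPM (log2 0.95 ± 0.17, adjusted p = 0.00603). Of 20 unfolded protein response genes 4 were called higher in lymphatic libraries, Manf, Hspa5, Pdia6 and Hsp90b1. Hspa5 (BiP), a chaperone of the endoplasmic reticulum, was at 1031 ± 154 against 633 ± 101 CPM (log2 0.70 ± 0.16, adjusted p = 0.0198). The count of that list was 0 without hematogenous 3 or 4, 1 without lymphatic 2 or hematogenous 1 or 2 and 5 without lymphatic 4. In the fit without lymphatic 4, 1 gene of the list, Herpud1, was called higher in hematogenous libraries. Manf was at 199 ± 66.4 against 111 ± 8.07 CPM (log2 0.84 ± 0.21, adjusted p = 0.0275). Not called with 1 library left out were Hspa5 (without hematogenous 3 or 4, adjusted p up to 0.0663) and Manf (without lymphatic 2 or any hematogenous library, adjusted p up to 0.0892).

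Of 50 MYC targets and ribosome biogenesis genes 15 were higher in lymphatic libraries and 0 in hematogenous ones (median log2 0.40), and 21 and 0 without lymphatic 4 (median 0.25). The count was 7 without lymphatic 1 or hematogenous 2, 8 without lymphatic 2 and 6 without hematogenous 1, 3 or 4. Nolc1, a nucleolar phosphoprotein, was at 942, 896, 970.0 and 868 CPM in lymphatic 1 to 4, against 507, 558, 517 and 511 in hematogenous 1 to 4 (log2 0.81 ± 0.11, adjusted p = 0.00217). Wdr74, a ribosome assembly factor, was at 133, 127, 128 and 194 CPM in lymphatic 1 to 4, against 69.7, 79.3, 66.1 and 75.4 in hematogenous 1 to 4 (log2 1.0 ± 0.16, adjusted p = 0.00442). Both separated the groups, and lymphatic 4 was far highest for Wdr74. The serine synthesis enzyme Psat1 was at 922, 1032, 790.3 and 731 CPM in lymphatic 1 to 4, against 419.7, 431, 419 and 443 in hematogenous 1 to 4 (log2 1.02 ± 0.14, adjusted p = 0.00208). Psph of the same pathway was at 58.9 ± 17.7 against 27.8 ± 6.35 CPM (log2 1.08 ± 0.23, adjusted p = 0.0148). The one-carbon enzyme Mthfd2 was at 209 ± 8.22 against 148 ± 22.7 CPM (log2 0.50 ± 0.13, adjusted p = 0.0345). These are the called genes among 30 of the ATF4 and amino acid response, and 0 were higher in hematogenous libraries, the count of 3 going to 1 without hematogenous 1. Without lymphatic 4 the counts were 3 in lymphatic and 1, Atf5, in hematogenous libraries, and the median log2 change went from 0.04 to −0.05. edgeR with 1 library fewer did not call Psph (without hematogenous 1, adjusted p up to 0.0548) and Mthfd2 (without lymphatic 1 or 2 or hematogenous 1, 3 or 4, adjusted p up to 0.119).

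Cell cycle genes mostly overlapped. Of 44 DNA replication genes 2 were higher in lymphatic and 1 in hematogenous libraries (median log2 0.08), and of 33 mitosis genes 2 and 0 (median 0.13). These are 4.55% and 2.27% of the replication list and 6.06% and 0% of the mitosis list. All lie below the 6.98% and 6.32% of all genes. The lymphatic counts were 1 without lymphatic 1, 2 or 3 or hematogenous 1, 3 or 4 and 4 without lymphatic 4 for replication. For mitosis they were 0 without hematogenous 4, 1 without lymphatic 1 or 3 or hematogenous 1, 2 or 3 and 7 without lymphatic 4. The hematogenous counts without lymphatic 4 were 2 for replication and 3 for mitosis (Mki67, Foxm1 and Nusap1). In that fit replication had 9.09% and 4.55% of its list and mitosis 21.2% and 9.09%, beside 12.1% and 13.2% of all genes. Pola2, a subunit of DNA polymerase alpha, was at 137, 129, 149.6 and 122 CPM in lymphatic 1 to 4, against 85.2, 87.5, 91 and 86.3 in hematogenous 1 to 4 (log2 0.62 ± 0.12, adjusted p = 0.00832), apart between the groups. The licensing factor Cdc6 was higher in lymphatic libraries (105 ± 9.75 against 74.2 ± 10.7 CPM, log2 0.51 ± 0.14, adjusted p = 0.0399). The mitotic kinase Aurka was at 98.2 ± 14.1 against 65.1 ± 11.1 CPM (log2 0.59 ± 0.16, adjusted p = 0.0371), and the kinetochore gene Nuf2 at 225 ± 24.7 against 152 ± 3.87 CPM (log2 0.56 ± 0.12, adjusted p = 0.0141). The ligase Lig1 was higher in hematogenous ones (178 ± 23.1 against 260.1 ± 23 CPM, log2 −0.54 ± 0.14, adjusted p = 0.0280). Among these, the call depended on 1 library for Cdc6 (without lymphatic 1, 2 or 3 or hematogenous 1, 3 or 4, adjusted p up to 0.138), Aurka (without lymphatic 1 or 3 or hematogenous 2, 3 or 4, adjusted p up to 0.116), Nuf2 (without hematogenous 1 or 4, adjusted p up to 0.0559) and Lig1 (without lymphatic 1 or 2 or any hematogenous library, adjusted p up to 0.0899).

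Ribosomal protein and respiratory chain genes turned on lymphatic 4. Of 78 cytosolic ribosomal protein genes 1, Rpl6, was called, and 77 had a positive log2 change with a median of 0.41, which went to −0.01 without lymphatic 4. The called genes then numbered 3 in lymphatic and 1 in hematogenous libraries. Over all single omissions the lymphatic count was 0 without any hematogenous library, 2 without lymphatic 1 or 3, 3 without lymphatic 4 and 4 without lymphatic 2. Rpl6 was at 1370.3, 1317, 1443 and 2277 CPM in lymphatic 1 to 4, against 1013, 955, 1037 and 905 in hematogenous 1 to 4 (log2 0.71 ± 0.18, adjusted p = 0.0305), and without lymphatic 4 its change was 0.46. Of 75 nuclear genes of oxidative phosphorylation 8 were higher in lymphatic libraries and 0 in hematogenous ones with a median of 0.47. The 8 genes are 10.7% of the list beside 6.98% of all genes. The counts without lymphatic 4 were 11 and 2 with a median of 0.08, and 14.7% of the list stood beside 12.1% of all genes. Leaving out any hematogenous library gave 1 or 2, and leaving out lymphatic 1 gave 4. Cox8a, a subunit of cytochrome oxidase, was at 197, 185, 189 and 379 CPM in lymphatic 1 to 4, against 102, 111, 130.2 and 114 in hematogenous 1 to 4 (log2 1.06 ± 0.23, adjusted p = 0.0162). Lymphatic 4 was about 2-fold above its group, and the other lymphatic libraries still lay above all hematogenous ones. Ndufs8 of complex I was at 135, 87.2, 152 and 309 CPM in lymphatic 1 to 4, against 78, 71.8, 88.8 and 66.9 in hematogenous 1 to 4 (log2 1.16 ± 0.32, adjusted p = 0.0403), and the groups overlapped between lymphatic 2 and hematogenous 3. Of the 13 genes of the mitochondrial genome edgeR called 0, and 0 had an unadjusted p under 0.05, with 0 called by DESeq2 and 0 by limma-voom. The threshold was missed with 1 library fewer by Rpl6 (without any hematogenous library, adjusted p up to 0.0982), Cox8a (without hematogenous 1, 2 or 4, adjusted p up to 0.0635) and Ndufs8 (without lymphatic 1 or 3 or any hematogenous library, adjusted p up to 0.118).

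**Figure D4:**
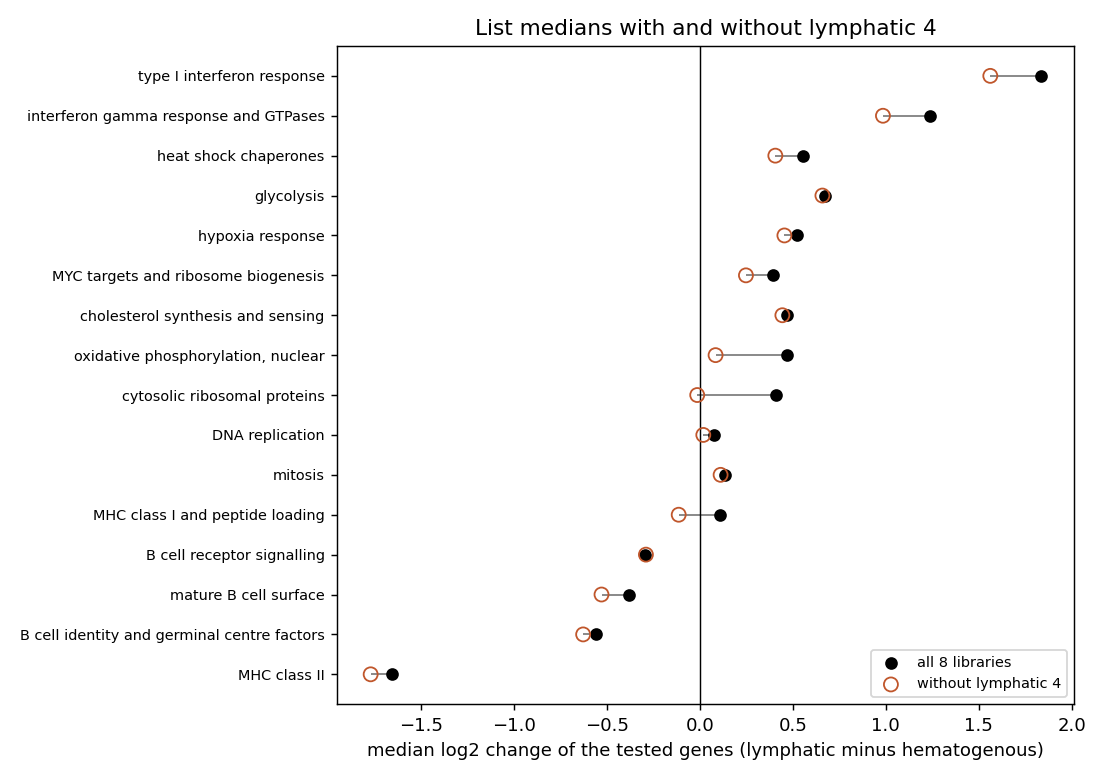
Points give the median log2 change of the tested genes of each list (x axis, lymphatic minus hematogenous), filled for all 8 libraries and open without lymphatic 4. The ribosomal protein median moves from 0.41 to −0.01 and oxidative phosphorylation from 0.47 to 0.08, while type I interferon stays at 1.56 or above and MHC class II at −1.66 or below.

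Immediate early genes, which respond within minutes to receptor signals or handling, were divided, 6 of 25 higher in lymphatic and 3 in hematogenous libraries. The first count was 3 without hematogenous 1 or 3 and 8 without lymphatic 2 or 4, and the second 5 without lymphatic 4. Fos was at 31.2, 17.7, 23.9 and 21.6 CPM in lymphatic 1 to 4, against 8.38, 9.44, 7.36 and 15.9 in hematogenous 1 to 4 (log2 1.22 ± 0.27, adjusted p = 0.0153), apart between the groups. Fosb was at 211, 118, 203 and 71.4 CPM in lymphatic 1 to 4, against 42.1, 67.9, 37.9 and 82.4 in hematogenous 1 to 4 (log2 1.39 ± 0.36, adjusted p = 0.0306), where lymphatic 4 fell below hematogenous 4. Egr1 was higher in hematogenous libraries at 4.75, 4.72, 5.84 and 6.62 CPM in lymphatic 1 to 4, against 12.2, 12.6, 12.5 and 10.7 in hematogenous 1 to 4 (log2 −1.13 ± 0.19, adjusted p = 0.00457). It was called there with Dusp6, a phosphatase of ERK (57 ± 7.88 against 99.6 ± 12.5 CPM, log2 −0.81 ± 0.15, adjusted p = 0.00794), and with Fosl2. Dropping 1 library ended the calls of Fos (without hematogenous 1, 2 or 3, adjusted p up to 0.0623) and Fosb (without lymphatic 1 or 3 or hematogenous 1, 2 or 3, adjusted p up to 0.102).

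Fosl2 belongs to genes in which hematogenous 2 stood near the lymphatic libraries. Fosl2, an AP-1 factor, was at 4.75, 5.11, 4.00 and 3.01 CPM in lymphatic 1 to 4, against 31.1, 5.18, 32.9 and 48.9 in hematogenous 1 to 4 (log2 −2.79 ± 0.53, adjusted p = 0.00881). Pex11a, which multiplies peroxisomes, was at 3.87, 4.68, 4.56 and 4.87 CPM in lymphatic 1 to 4, against 22.4, 5.60, 21.7 and 35.6 in hematogenous 1 to 4 (log2 −2.23 ± 0.44, adjusted p = 0.00984). Pipox, a peroxisomal oxidase, was at 5.36, 4.45, 4.24 and 5.47 CPM in lymphatic 1 to 4, against 29.7, 12.1, 28.6 and 44.9 in hematogenous 1 to 4 (log2 −2.55 ± 0.34, adjusted p = 0.00207). In each, hematogenous 1, 3 and 4 were well above every lymphatic library and hematogenous 2 was the lowest of its group. Sesn1, a p53 target that restrains mTORC1, was at 51.7, 48.9, 55.4 and 53.2 CPM in lymphatic 1 to 4, against 137, 53.7, 172 and 219 in hematogenous 1 to 4 (log2 −1.47 ± 0.33, adjusted p = 0.0184). Bmf, a BH3-only gene that promotes apoptosis, was at 6.04, 5.08, 8.96 and 4.54 CPM in lymphatic 1 to 4, against 30.8, 10.0, 23.2 and 30.8 in hematogenous 1 to 4 (log2 −1.95 ± 0.36, adjusted p = 0.00715). Tsc22d3 (GILZ), a glucocorticoid target, was at 29.9, 25.3, 50.9 and 57.6 CPM in lymphatic 1 to 4, against 168, 50.7, 148 and 133 in hematogenous 1 to 4 (log2 −1.61 ± 0.37, adjusted p = 0.0200). Hematogenous 2 was again lowest of its group, and it fell inside the lymphatic range for Sesn1 and Tsc22d3. Removing 1 library ended the calls of Sesn1 (without hematogenous 3 or 4, adjusted p up to 0.0593) and Tsc22d3 (without lymphatic 1 or hematogenous 1, 3 or 4, adjusted p up to 0.0684).

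Some of these genes belong to lists of few called genes. Glucocorticoid response genes had 3 of 12 higher in hematogenous libraries (25%, beside 6.32% of all genes) and 0 in lymphatic ones (median log2 −0.34). The hematogenous count was 5 without lymphatic 4 or hematogenous 2. In the fit without lymphatic 4, 1 gene, Errfi1, was called higher in lymphatic libraries. Fkbp5, a co-chaperone that glucocorticoids induce, was at 49.5, 38.5, 52.1 and 37.2 CPM in lymphatic 1 to 4, against 219, 109.8, 146 and 187 in hematogenous 1 to 4 (log2 −1.90 ± 0.22, adjusted p = 0.00134), without overlap. p53 pathway genes had 4 of 21 (19%, beside 6.32% of all genes) and 0 (median 0.07), the others being Ddb2, Trp53inp1 and Rrm2b. The hematogenous count was 1 without hematogenous 3 or 4, 2 without lymphatic 2 or hematogenous 1 and 5 without lymphatic 4. In the fit without lymphatic 4, 2 genes, Mdm4 and Tigar, were called higher in lymphatic libraries (9.52%, beside 12.1% of all genes). The BCL2 family had 2 of 12 higher in hematogenous libraries, Bmf and the survival gene Bcl2 (16.7%, beside 6.32% of all genes), and 0 in lymphatic ones. Without lymphatic 4 the counts were 3 (25%, beside 13.2%) and 0. Bcl2 was at 34, 29.5, 31.7 and 30.5 CPM in lymphatic 1 to 4, against 60.6, 62.8, 53.3 and 62.4 in hematogenous 1 to 4 (log2 −0.93 ± 0.13, adjusted p = 0.00214), and all hematogenous libraries lay above all lymphatic ones. NF-kB genes had 2 of 19 higher in lymphatic libraries, Cd83 and Nfkbiz (10.5%, beside 6.98% of all genes). In hematogenous libraries 3 were higher, Tnip1, Nfkbie and Nfkb1 (15.8%, beside 6.32%). The lymphatic count of that list was 0 without hematogenous 1, 3 or 4, 1 without lymphatic 2 or hematogenous 2 and 3 without lymphatic 4. Its hematogenous count was 0 without lymphatic 1 or hematogenous 1, 3 or 4, 1 without lymphatic 2 or hematogenous 2 and 6 without lymphatic 4. The NF-kB counts without lymphatic 4 are 15.8% and 31.6% of the list, beside 12.1% and 13.2% of all genes.

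Of 19 tested TGF-beta genes 1 was higher in lymphatic libraries (5.26%, beside 6.98% of all genes) and 3 in hematogenous ones (15.8%, beside 6.32%). The lymphatic share is thus no larger than that of all genes. Tgfb2 was higher in lymphatic libraries at 11.4, 10.5, 13.2 and 9.24 CPM in lymphatic 1 to 4, against 2.69, 1.5, 1.82 and 2.59 in hematogenous 1 to 4 (log2 2.38 ± 0.25, adjusted p = 8.11e-04). Tgfb1 was higher in hematogenous ones at 31.7, 21.6, 38.7 and 39.6 CPM in lymphatic 1 to 4, against 77, 72.8, 73.5 and 68.9 in hematogenous 1 to 4 (log2 −1.15 ± 0.19, adjusted p = 0.00457). These ligands of one family thus separated the groups in opposite directions. The receptor Tgfbr2 was higher in hematogenous libraries (31.4 ± 6.49 against 53.1 ± 4.22 CPM, log2 −0.76 ± 0.17, adjusted p = 0.0170). So was the feedback inhibitor Smad7 (6.36 ± 1.10 against 12.2 ± 3.05 CPM, log2 −0.94 ± 0.23, adjusted p = 0.0235). The other 15 of 19 TGF-beta genes were not called, and the hematogenous count of 3 was 1 without hematogenous 1 or 4 and 4 without lymphatic 4. The lymphatic count was 2 without lymphatic 4 (10.5%, beside 12.1% of all genes).

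Integrins had 5 of 15 genes higher in hematogenous libraries and 1, Itgb5, in lymphatic ones. The first count is 33.3% of the list beside 6.32% of all genes, and it was 2 without hematogenous 1, 3 or 4, 3 without lymphatic 1 or 2 and 6 without lymphatic 3 or 4. The lymphatic count was 0 without hematogenous 3 or 4 and 2 without lymphatic 4. Itgal, the alpha chain of LFA-1 that binds ICAM1, was at 17.9, 19.2, 24.6 and 12.7 CPM in lymphatic 1 to 4, against 38.9, 39.9, 31.5 and 38.2 in hematogenous 1 to 4 (log2 −1.0 ± 0.20, adjusted p = 0.0108). Itga1, a collagen receptor chain, was at 5.02, 5.98, 6.88 and 2.68 CPM in lymphatic 1 to 4, against 19.4, 17.2, 14.5 and 18.3 in hematogenous 1 to 4 (log2 −1.76 ± 0.27, adjusted p = 0.00343). The laminin receptor chain Itga6 was at 57.4 ± 18.7 against 112 ± 20.1 CPM (log2 −0.96 ± 0.25, adjusted p = 0.0296), and Itgb5 was at 3.94 ± 0.967 against 1.59 ± 0.374 CPM (log2 1.28 ± 0.28, adjusted p = 0.0161). Lymphatic 4 was lowest for Itgal, Itga1 and Itga6. Cd69, which holds lymphocytes in the node by blocking S1PR1, was at 7.27, 7.75, 4.96 and 5.03 CPM in lymphatic 1 to 4, against 1.58, 2.34, 1.53 and 1.66 in hematogenous 1 to 4 (log2 1.80 ± 0.27, adjusted p = 0.00293). It was the homing gene of 13 tested that was higher in lymphatic libraries (7.69%, near the 6.98% of all genes). In hematogenous libraries 2 were higher (15.4%, beside 6.32%). Without lymphatic 4 the homing counts were 2 in lymphatic (15.4%, beside 12.1% of all genes) and 3 in hematogenous libraries (23.1%, beside 13.2%). Gpr132, a lipid-responsive receptor, was higher in hematogenous ones (10.6 ± 2.78 against 25 ± 4.20 CPM, log2 −1.24 ± 0.22, adjusted p = 0.00603). So was S1pr2, which confines B cells to the germinal centre (31.3 ± 4.05 against 46.3 ± 4.42 CPM, log2 −0.56 ± 0.15, adjusted p = 0.0320). The hematogenous count of 2 was 1 without any library other than lymphatic 4, and the lymphatic count of 1 was 2 without lymphatic 1 or 4.

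Of 12 checkpoint and costimulation genes 1 was higher in lymphatic libraries (8.33%, near the 6.98% of all genes) and 3 in hematogenous ones (25%, beside 6.32%). Without lymphatic 4 the counts were 1 (8.33%, beside 12.1% of all genes) and 5 (41.7%, beside 13.2%). Cd274 (PD-L1), an interferon-induced ligand that restrains T cells, was at 9.78, 14.7, 8.88 and 10.4 CPM in lymphatic 1 to 4, against 6.09, 4.93, 6.79 and 6.28 in hematogenous 1 to 4 (log2 0.87 ± 0.22, adjusted p = 0.0266). The 4 lymphatic libraries lay above the hematogenous ones by a narrow margin. Btla, an inhibitory receptor, was at 106, 122, 90.5 and 73.3 CPM in lymphatic 1 to 4, against 182, 161, 208 and 233 in hematogenous 1 to 4 (log2 −1.0 ± 0.18, adjusted p = 0.00685). The receptor Cd244a was at 8.35 ± 1.04 against 25.1 ± 6.05 CPM (log2 −1.58 ± 0.21, adjusted p = 0.00201). Icosl, the ligand of ICOS on helper T cells, was at 5.79 ± 0.924 against 12.1 ± 2.67 CPM (log2 −1.07 ± 0.22, adjusted p = 0.0114). Of 15 Notch genes edgeR called 0, 4 had an unadjusted p under 0.05, and DESeq2 called 3 and limma-voom 0. Without lymphatic 4 edgeR called 1 higher in lymphatic and 3 in hematogenous libraries. Across the adhesion, homing, TGF-beta and checkpoint genes, single omissions ended the calls of Tgfbr2 (without hematogenous 1 or 4, adjusted p up to 0.0593), Smad7 (without hematogenous 1, 3 or 4, adjusted p up to 0.0803), Itga6 (without lymphatic 2 or hematogenous 1, 3 or 4, adjusted p up to 0.0933), Itgb5 (without hematogenous 3 or 4, adjusted p up to 0.0610), S1pr2 (without lymphatic 1, 2 or 3 or any hematogenous library, adjusted p up to 0.106) and Cd274 (without lymphatic 2 or any hematogenous library, adjusted p up to 0.0827).

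Genes of other functions were among the largest changes at 10 CPM or more. Nalcn, a sodium leak channel, was at 38.4, 33, 32.3 and 28.7 CPM in lymphatic 1 to 4, against 212, 189, 199 and 227 in hematogenous 1 to 4 (log2 −2.64 ± 0.14, adjusted p = 2.53e-05). The libraries of each group were close together and far from the other group, and culture was at 1.29 CPM. Pcp4, a calmodulin regulator, was at 1.22, 0.708, 1.04 and 1.37 CPM in lymphatic 1 to 4, against 25.1, 18.5, 27.7 and 16.4 in hematogenous 1 to 4 (log2 −4.35 ± 0.28, adjusted p = 3.91e-05). Sorl1, a sorting receptor, was at 27.3, 26.8, 31.3 and 16.5 CPM in lymphatic 1 to 4, against 159, 114, 159 and 142 in hematogenous 1 to 4 (log2 −2.50 ± 0.21, adjusted p = 3.09e-04). All hematogenous libraries were 3-fold or more above the lymphatic ones in these genes. The matrix genes Col5a3, a chain of type V collagen, and Ltbp2, which binds fibrillin, were nearly absent from lymphatic libraries, with 15 counts each over the group. Col5a3 was at 0.204, 0.0393, 0.560 and 0.219 CPM in lymphatic 1 to 4, against 16.6, 23.1, 8.99 and 13.1 in hematogenous 1 to 4 (log2 −6.06 ± 0.53, adjusted p = 3.60e-04). Ltbp2 was at 0.407, 0, 0.320 and 0.273 CPM in lymphatic 1 to 4, against 21.4, 5.01, 6.50 and 10.3 in hematogenous 1 to 4 (log2 −5.55 ± 0.72, adjusted p = 0.00191). Without lymphatic 3 the change of Col5a3 was −6.70, and without hematogenous 1 that of Ltbp2 was −4.94. Both were at or near 0 in culture (0 and 0.0848 CPM). Of 14 stromal markers, Col3a1, Pdgfrb, Pdpn, Ccl19 and Ccl21a were at 0 in all 8 libraries. The whole list summed to 75.6 to 172 CPM in lymphatic and 261 to 293 CPM in hematogenous libraries. Vim was its only tested gene and was called higher in hematogenous libraries. Which cells express Col5a3 and Ltbp2 was not tested.

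Crip1, a LIM domain protein, was at 29.2, 12.8, 39.4 and 75.9 CPM in lymphatic 1 to 4, against 324, 224, 290.1 and 239.9 in hematogenous 1 to 4 (log2 −2.78 ± 0.44, adjusted p = 0.00377), and without lymphatic 4 at −3.37. Haao of the kynurenine pathway was also higher in hematogenous libraries (5.11 ± 2.59 against 25 ± 3.33 CPM, log2 −2.31 ± 0.32, adjusted p = 0.00222). So was the ubiquitin ligase Neurl1b (2.02 ± 0.570 against 10.3 ± 0.676 CPM, log2 −2.37 ± 0.24, adjusted p = 7.27e-04). In the other direction, Mt1, a metallothionein that binds zinc, was at 34.7, 22.2, 51.3 and 107 CPM in lymphatic 1 to 4, against 2.61, 7.43, 4.02 and 2.40 in hematogenous 1 to 4 (log2 3.67 ± 0.53, adjusted p = 0.00273), and without lymphatic 4 its change was 3.04. The zinc finger gene Zfp979 was at 28.4, 30.7, 21.7 and 25 CPM in lymphatic 1 to 4, against 0.870, 2.17, 2.87 and 1.48 in hematogenous 1 to 4 (log2 3.83 ± 0.31, adjusted p = 3.09e-04). Fndc3c1, with fibronectin domains, was at 10.0, 16.5, 9.92 and 6.18 CPM in lymphatic 1 to 4, against 0.949, 0.668, 0.574 and 0.739 in hematogenous 1 to 4 (log2 3.84 ± 0.36, adjusted p = 5.00e-04). Tubb3, a beta tubulin, was at 11.2, 6.53, 10.5 and 23 CPM in lymphatic 1 to 4, against 0.870, 1.00, 1.05 and 1.48 in hematogenous 1 to 4 (log2 3.58 ± 0.42, adjusted p = 0.00135). No groups overlapped in these genes, and lymphatic 4 was highest for Mt1 and Tubb3. Magohb of the exon junction complex was at 14.9 ± 4.71 against 0.650 ± 0.532 CPM (log2 4.44 ± 0.45, adjusted p = 7.35e-04). It has the near-identical copy Magoh and is uncertain for that reason, and without hematogenous 2 its change was 5.23.

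The culture libraries, so named by their titles although their tissue label is lymph node, were set beside these differences. Of the 910 genes higher in lymphatic libraries, the culture mean lay between the node groups in 451 (49.6%), above both in 279 (30.7%) and below both in 180 (19.8%). Of the 824 higher in hematogenous libraries it lay between in 387 (47.0%), above both in 91 (11.0%) and below both in 346 (42.0%). Ifit1 was at 1.20 CPM in culture, near the hematogenous level, and Rasgrp1 at 0.0725 CPM, below both.

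Transcripts of other cells were scarce. The sum of T cell receptor and CD3 genes and that of C1q genes were higher in every lymphatic library than in any hematogenous one. Both sums were highest in lymphatic 4 and were not tested. The T cell receptor and CD3 genes Trac, Trbc1, Trbc2, Cd3d, Cd3e and Cd3g summed to 10.9, 18.4, 21.6 and 64.4 CPM in lymphatic 1 to 4 and to 3.48, 7.60, 4.97 and 3.14 CPM in hematogenous 1 to 4. Of 17 tested T cell markers 9 were higher in lymphatic libraries (52.9%, beside 6.98% of all genes) and 0 in hematogenous ones. Without lymphatic 4 the counts were 8 (47.1%, beside 12.1%) and 2 (11.8%, below the 13.2% of all genes). The lymphatic count was 5 without lymphatic 3, 1 without hematogenous 1 or 4 and 3 without hematogenous 3. Trbc2 was at 2.92, 4.56, 6.08 and 18.3 CPM in lymphatic 1 to 4, against 1.34, 2.17, 0.956 and 0.185 in hematogenous 1 to 4 (log2 2.66 ± 0.65, adjusted p = 0.0250), with lymphatic 4 at 3-fold or more of the others, and Cd3e at 2.99 ± 2.04 against 0.667 ± 0.339 CPM (log2 2.15 ± 0.58, adjusted p = 0.0355). Without lymphatic 4 the changes were 1.78 and 1.55. Summed over all 21 T cell markers, some of which the lymphoma also expresses, the ranges overlapped, at 195 to 298 CPM and 208 to 327 CPM. In fits of 7 libraries, edgeR did not call Trbc2 (without hematogenous 1, 3 or 4, adjusted p up to 0.0788) and Cd3e (without lymphatic 3 or any hematogenous library, adjusted p up to 0.109).

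The complement genes C1qa, C1qb and C1qc of macrophages summed to 2.92, 4.25, 3.60 and 11.4 CPM in lymphatic 1 to 4 and to 0.791, 2.59, 1.15 and 0.739 CPM in hematogenous 1 to 4. Lyz2, the myeloid lysozyme, was at 11.2, 35.4, 21.6 and 41 CPM in lymphatic 1 to 4, against 12.7, 13.1, 13.7 and 6.83 in hematogenous 1 to 4, with lymphatic 1 inside the hematogenous range (log2 1.22 ± 0.37, adjusted p = 0.0549). All 15 macrophage markers summed to 29.9 to 83.5 CPM and 20.1 to 29.1 CPM. Of 5 tested, 1, Csf1r, was called higher in lymphatic libraries and 0 in hematogenous ones, with 0 to 2 when 1 library was left out. NK cell markers summed to 1.97 to 12.6 CPM and 0.369 to 2.59 CPM, dendritic cell markers to 50.3 to 87.6 CPM and 52.0 to 56.6 CPM, and neutrophil markers to 0.590 to 0.984 CPM and 0.835 to 3.01 CPM. Col1a1 of fibroblasts was at 0, 0.157, 0.240 and 0 CPM in lymphatic 1 to 4, against 0, 0, 0 and 0 in hematogenous 1 to 4. S100a8 of neutrophils was at 0, 0, 0.160 and 0 CPM in lymphatic 1 to 4, against 0.633, 0.334, 0.478 and 0.739 in hematogenous 1 to 4. Both were too low to be tested. Erythroid and platelet markers summed to 2.64 to 15.2 CPM and 3.17 to 6.60 CPM, with Hbb-bs at 3.07 ± 2.45 against 1.42 ± 0.705 CPM (log2 1.17 ± 0.65, adjusted p = 0.257). Adipocyte markers summed to at most 1.91 CPM. The stromal sum was 75.6 to 172 CPM in lymphatic and 261 to 293 CPM in hematogenous libraries, with Vim, which lymphocytes express, as the only tested gene, and the endothelial sum 79.0 to 114 CPM and 138 to 164 CPM. Pecam1, which B cells also express, was at 111, 112, 93.4 and 77.2 CPM in lymphatic 1 to 4, against 134, 160.3, 149.9 and 159 in hematogenous 1 to 4 (log2 −0.62 ± 0.15, adjusted p = 0.0230). Its call was lost without hematogenous 2, 3 or 4 (adjusted p up to 0.0734), and Prox1 and Cldn5 of endothelium were at 0 in all 8 libraries. The part of these cells in the other results was not tested.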

How the data were processed

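Poly(A) RNA was sequenced from 12 libraries, and the 8 from lymph nodes were compared, 4 a group, with groups taken from the titles. Per the labels' protocols the reads are stranded and from 1 end. FastQC 0.11.9, Trimmomatic 0.39, HISAT2 2.1.0, HTSeq 2.0.2 and build GRCm39 are named in the submitters' processing notes. The deposited files hold raw counts per gene, without normalization by the authors. Lines for reads assigned to no gene held 30.3% to 33.3% of reads in the lymph node files and were dropped before library sizes were taken.

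Symbols came from an older mouse annotation (91.8% of 56748 IDs), so no gene positions are given. Genes kept by filterByExpr (13044) entered the quasi-likelihood test of edgeR 4.0.16 (R 4.3.3) on the 8 libraries with TMM factors, two-sided, 6 residual degrees of freedom, Benjamini-Hochberg adjustment over all tested genes and a threshold of 0.05. CPM use the same TMM factors, and culture means use TMM over all 12 libraries. Counting error is limited by depth, from 5286775 counts up. Genes with near-identical copies can lose reads in counting.

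The comparison, the 47 gene lists and 10 marker lists, and the named genes were chosen with earlier results of these data known. By rule, genes named were called ones without overlap and at 10 CPM or more (the 15 largest changes each way), up to 4 called genes per list, genes against a list's direction, and fixed markers. Of these 121 are given with values, and some genes are not reported here. Promoter sequences were matched by symbol to a RefSeq table of GRCm38.p6. Alternatives were RLE size factors, DESeq2 1.42.0, limma-voom (limma 3.58.1) with and without library weights, other filters, all 12 libraries, the replicate number as a block, and leaving out each library.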

Additional observations from a re-analysis of the deposited data

Results flagged for a closer look

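In 290 groups of 4 libraries looked at, 27 held a library far from the other 3, by the 95% limit of Dixon's test of the gap over the range, where chance gives about 1 in 20 groups. Lymphatic 4 was that library 12 times. It held 15.7 against 7.49 to 8.67% of counts in ribosomal protein genes, 171367 against 74559.7 to 86028 summed CPM of these genes, 20572 against 11566 to 12138 summed CPM of oxidative phosphorylation genes and 7801 against 6828 to 6966 summed CPM of mature B cell surface genes. It was also high in CPM of Rpl6 (2277 against 1317 to 1443), Cox8a (379 against 185 to 197), Wdr74 (194 against 127 to 133), Psph (85.4 against 48 to 51.3) and the C1q genes (11.4 against 2.92 to 4.25). It was low in CPM of Ifnar1 (26.9 against 35.8 to 37.5), Cd180 (21.2 against 32.2 to 34) and Tlr9 (2.35 against 8.85 to 9.92).

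Lymphatic 2 had 25347 against 21484 to 22009 genes detected, with more CPM of Cdc6 (120.0 against 100.1 to 101) and less of Lig1 (144 against 189 to 192) and Ighm (3312 against 3757 to 3817) than the others of its group. It was also the most deeply sequenced library. Lymphatic 1 was low in CPM of Msmo1 (47 against 62.4 to 63.7) and Icosl (4.41 against 6.12 to 6.40). Lymphatic 3 was high in CPM of Ighd (189.9 against 146 to 153) and S100a8 (0.160 against 0 to 0) and low in Tcf4 (89.6 against 106 to 107).

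Hematogenous 2 was high in CPM of P4ha1 (30.2 against 24.8 to 25.4), Mthfd2 (182 against 134 to 140.1), Cd69 (2.34 against 1.53 to 1.66) and the sum of MYC targets and ribosome biogenesis genes (22585 against 20832 to 21126). Hematogenous 1 was high in CPM of Inpp5d (299 against 252 to 257), and hematogenous 4 was low in Lyz2 (6.83 against 12.7 to 13.7).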

How the results depend on the processing

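Over all settings run, 0 of the 119 tested genes given with values changed direction past the threshold. Calls of the 115 called genes were lost for 28 with the replicate block, 5 with limma-voom, 4 without a filter, 1 with library weights and 0 with RLE, DESeq2 or all 12 libraries. The stricter filter tested 113 of the 119 genes and lost 0 of their calls. Of these genes 79 kept the call without each library in turn, and 10 moved by over 1.5 times. Deviations from the group means correlated little between libraries of the same replicate number (0.0344, −0.0470, −0.128 and −0.119). The labels do not say what a shared number means, and these correlations cannot settle whether the libraries are paired. With the replicate block 405 genes were higher in lymphatic and 453 in hematogenous libraries, with 20 type I interferon, 8 interferon gamma, 6 glycolysis, 4 hypoxia, 6 MYC and ribosome biogenesis and 7 heat shock genes, 5 receptor signalling genes and 8 B cell factors called. All 12 libraries gave 1542 and 1470 genes and 14 signalling genes. DESeq2 gave 1196 and 1237. Library weights gave 2942 and 2550, with 13 hypoxia, 34 MYC and ribosome biogenesis, 18 mature B cell surface and 15 signalling genes. That fit leans on lymphatic 1, which had a weight of 6.48 against 0.425, 0.725 and 0.0681 for lymphatic 2 to 4. limma-voom gave 4 hypoxia genes, and 8 interferon gamma genes. Without a filter 30031 genes were tested and their median log2 change was 0.15, with 1026 genes higher in lymphatic and 995 in hematogenous libraries. Leaving out 1 library at a time gave 369 to 1608 and 396 to 1749 genes, and per list 22 to 37 type I interferon, 5 to 12 interferon gamma, 9 to 12 class II, 6 to 12 glycolysis, 4 to 12 hypoxia, 6 to 21 MYC and ribosome biogenesis, 6 to 11 heat shock, 7 to 16 mature B cell surface, 5 to 14 receptor signalling genes and 7 to 17 B cell factors. The cause of these shifts was not tested, other than that fewer samples enter when a library is left out. Culture lay between the groups in 449 and 393 genes with RLE factors.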

Other observations

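Some other gene families had members that passed the test, beside 6.98% of all genes higher in lymphatic and 6.32% in hematogenous libraries. Of 8 GIMAP genes, GTPases of lymphocyte survival, 3 were higher in lymphatic libraries (Gimap3, Gimap4 and Gimap8) and 0 in hematogenous ones. Of 10 Ly6 and Schlafen genes 4 were higher in lymphatic libraries (Ly6a, Slfn1, Slfn2 and Slfn5) and 1, Ly6e, in hematogenous ones. Of 28 genes of glutathione, thioredoxin and iron handling 5 were higher in lymphatic libraries (Gsr, Txnrd1, Slc11a2, Tfrc and Sod2) and 1, the catalase gene Cat, in hematogenous ones. Of 8 plasma cell genes 2 were higher in each direction, Ighg1 and Sdc1 in lymphatic and Derl3 and Txndc5 in hematogenous libraries, and both counts ranged from 1 to 3 with 1 library left out (3 and 2 without lymphatic 4). Of 15 circadian clock genes 1, Ciart, was higher in lymphatic libraries, and 2, Tef and Arntl, in hematogenous ones, with 6.67% of the list in the first direction, near the share of all genes. Both circadian counts were 0 without lymphatic 1 or 3 or hematogenous 1 or 3, and 2 and 2 without lymphatic 4. Leaving out 1 library gave 1 without lymphatic 3 or any hematogenous library for GIMAP genes. It gave 2 without hematogenous 2 or 3 and 5 without lymphatic 1 or 4 for Ly6 and Schlafen genes, and 1 without hematogenous 1, 2 without hematogenous 2, 3 or 4, 3 without lymphatic 1 or 2 and 8 without lymphatic 4 for glutathione and iron genes, all higher in lymphatic libraries. The median log2 changes of these lists were 0.15, 1.20, 0.46, 0.71 and 0.12, beside 0.05 over all tested genes. Without lymphatic 4 the GIMAP counts were 3 in lymphatic and 1 in hematogenous libraries. In that fit 2 Ly6 and Schlafen genes and 2 glutathione and iron genes were higher in hematogenous libraries.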
